A study of Mus musculus with 6 samples.

Results

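The APOBEC and ADAR editing enzymes of the mouse bone marrow were described through 5 genes, *Apobec1*, *Apobec2*, *Apobec3*, *Adar* and *Adarb1*, which were taken by their symbols out of the 39179 genes in the counts. Bone marrow RNA was sequenced from 3 *MxCDX2* mice and 3 control littermates. *MxCDX2* mice had the genotype RsCDX2::Mx1Cre: they held a human *CDX2* coding sequence at the *Rosa26* locus, silent until a stop flanked by loxP sites is excised, together with a Cre recombinase driven by the interferon-inducible *Mx1* promoter. Among controls, control 1 was RsCDX2, control 2 was Mx1Cre and control 3 was wild type. Controls and *MxCDX2* mice alike were 3 months old and were injected intraperitoneally 3 times with poly(I:C), a double-stranded RNA mimic that induces interferon, at 10 µg/g. RNA was prepared 6 weeks later. The labels give the injections as daily and the methods as given every other day. Because the *Mx1* promoter responds in many interferon-exposed cells, the recombination is not limited to a single blood lineage, and the control group has only 1 mouse of each genotype.

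The AID/APOBEC family includes zinc-dependent deaminases that turn cytidine into uridine in RNA or single-stranded DNA, though not every member is known to do so. The founding enzyme, APOBEC1, edits messenger RNAs together with RNA-binding cofactors, whereas APOBEC3 restricts retroviruses and retroelements. ADAR proteins turn adenosine into inosine within double-stranded RNA, and ADAR1, the product of *Adar*, keeps the cell's own double-stranded RNA from triggering interferon responses. The counts give the abundance of the transcripts that encode these enzymes. The editing of their targets was not measured here.

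The promoter sequences are shown for the 2 genes that passed the thresholds of the comparison below, *Apobec1* and *Adarb1*. They are the 250 bases before the annotated start in RefSeq (GRCm38.p6), on the minus strand at chr6:122602445-122602694 for *Apobec1* and at chr10:77418274-77418523 for *Adarb1*. They are written 5′ to 3′ on the strand of the gene, and capitals mark TTTAT or its reverse complement, the core of the sites that CDX proteins bind. For *Apobec3*, a 30-base stretch of the plus strand at chr15:79892258-79892287 is shown because it holds a match to the interferon-stimulated response element, in capitals.
Apobec1: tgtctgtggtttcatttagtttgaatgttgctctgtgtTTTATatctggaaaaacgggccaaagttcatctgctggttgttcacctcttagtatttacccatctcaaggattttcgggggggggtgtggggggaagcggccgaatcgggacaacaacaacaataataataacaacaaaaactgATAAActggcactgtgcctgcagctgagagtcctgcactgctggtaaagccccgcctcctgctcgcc
Adarb1: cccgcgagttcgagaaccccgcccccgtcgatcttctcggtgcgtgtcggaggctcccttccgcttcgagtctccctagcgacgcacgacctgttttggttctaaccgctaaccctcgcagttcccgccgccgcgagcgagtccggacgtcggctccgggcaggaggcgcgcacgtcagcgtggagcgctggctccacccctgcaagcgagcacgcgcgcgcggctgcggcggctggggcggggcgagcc
Apobec3: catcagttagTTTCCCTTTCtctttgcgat

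Windows of 300 bases around the annotated starts, 250 before and 50 after, were searched on both strands. The *Apobec1* window had 2 matches to TTTAT, from base -212 to -208 and from base -67 to -63 relative to the start. This motif was present in 40.0% of all 32851 RefSeq windows of this length, so that its occurrence is common. The interferon-stimulated response element was searched as GAAA, any 2 bases and GAAA again, and was found in 3.44% of all windows. Among the windows of the 5 genes it occurred once, in the first *Apobec3* window, from base -140 to -131 on the minus strand, in a window that overlaps 3 annotated exons. TTTAT also occurred at 2 places each in the *Apobec2* window and in the second *Apobec3* window. The gamma-interferon activation site, TTCNNNGAA, was present in 8.3% of all windows and, for these genes, only in the third *Adar* window, from base 22 to 30 after the start. The *Adarb1* window held none of the 3 motifs. No match of a motif overlapped a match of another motif in these windows.

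Between 38646101 and 49899650 reads per mouse were counted on genes, and no pair of libraries within a group agreed within sampling noise. *Cdx2*, the mouse gene on which reads of the transgene were counted if at all, had 4, 0 and 0 counts in controls 1, 2 and 3 and 152, 155 and 183 counts in *MxCDX2* mice 1, 2 and 3. The wild-type mouse stood apart from the other controls along the second principal component (15.4% of the variance), and 5 megakaryocyte markers in it were 8.21 to 10.9 times the mean of the other controls. The enzymes that differ in it and the called list genes that are high in it are therefore also given without it. Erythroid markers, which define red cell precursors, were detected in all mice. By the thresholds given below, 9 of 9 were called down, against 9.03% of all genes tested. Of 7 monocyte and macrophage markers 5 were called up, against 4.59% of all genes. Also called down were 4 of 8 B cell and 4 of 9 neutrophil markers, with 0 called up in both lists. Of the B cell calls 0 remained without control 2 or without *MxCDX2* 3. In bulk bone marrow, fewer cells of a type and less RNA per cell cannot be told apart.

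The 3 *MxCDX2* and 3 control mice were compared to learn which of these enzymes differed in transcript abundance after *CDX2* expression. *Apobec1* rose and *Adarb1* fell in the bone marrow of *MxCDX2* mice, and *Apobec2*, *Apobec3* and *Adar* did not pass the thresholds. A gene was called when its absolute log2 fold change was above 1 and its adjusted p-value below 0.05 in the quasi-likelihood test of edgeR, with Benjamini-Hochberg adjustment over the 15980 genes tested. All 5 genes passed the filter on low counts, and 2 of 5 were called, against 13.6% of all genes tested. The call in the upward direction stood beside 4.59% of all genes and the call in the downward direction beside 9.03%. The groups did not overlap in 3 of 5 genes, against 42.1% of all genes tested, so that a lack of overlap is common in this comparison. With 3 mice in each group, the two-sided p of an exact permutation test is at least 0.10.

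**Figure D1:**
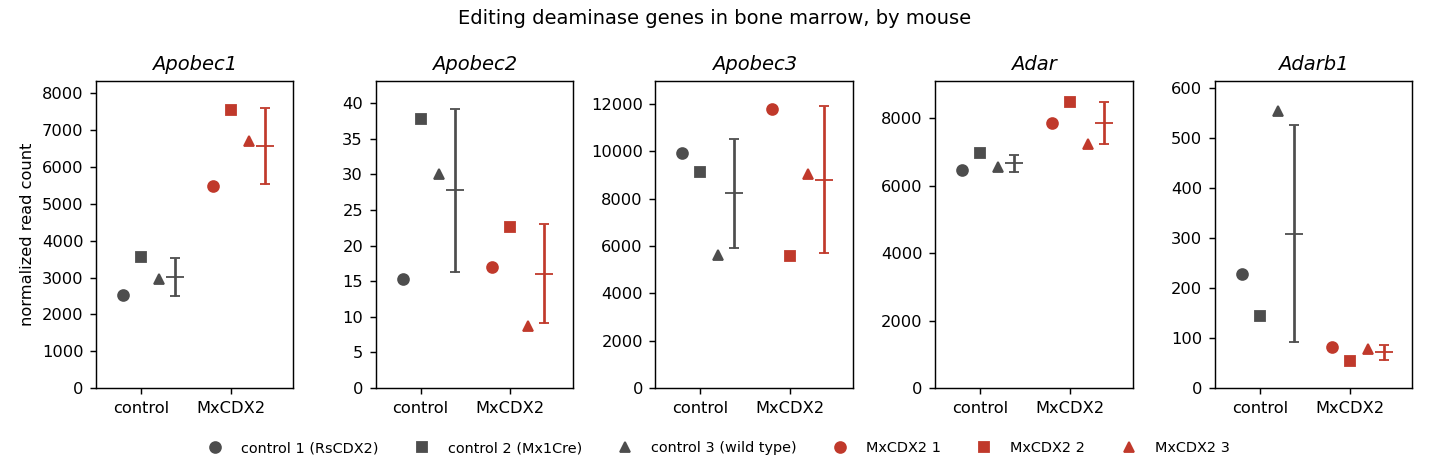
Normalized read counts (vertical axes, linear and starting at 0, in reads scaled to the mean library) of the 5 editing deaminase genes in 3 control mice (grey; circle RsCDX2, square Mx1Cre, triangle wild type) and 3 *MxCDX2* mice (red), with the mean and SD of each group beside the points. *Apobec1* and *Adar* lie higher in every *MxCDX2* mouse than in every control, *Adarb1* lies lower, and *Apobec2* and *Apobec3* overlap between the groups.

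*Apobec1* (ENSMUSG00000040613, chr6:122577792-122602444, minus strand, GRCm38) encodes the cytidine deaminase that edits apolipoprotein B messenger RNA in the intestine and other messenger RNAs in myeloid cells. Its normalized read counts, that is, reads scaled to the mean library size after TMM normalization, were 2530, 3570 and 2953 in controls 1, 2 and 3. In *MxCDX2* mice 1, 2 and 3 they were 5477, 7536 and 6692. Every *MxCDX2* mouse lay above every control, and the lowest *MxCDX2* mouse exceeded the highest control, the Mx1Cre mouse. The group means were 3018 ± 523 (SD, n = 3) and 6568 ± 1035 (SD, n = 3). The log2 fold change of 1.12 (SE 0.17, 95% interval 0.71 to 1.53) corresponds to a 2.18-fold rise, with an adjusted p-value of 0.00667 by edgeR. With any single mouse left out, the call held in 6 of 6 fits, with log2 fold changes from 1.02 to 1.26, and it held at 1.12 (adjusted p-value 0.0154, edgeR) without the wild-type mouse.

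The rise of *Apobec1* went along with the monocyte and macrophage markers (*Csf1r*, *Ly6c2*, *Ccr2*, *Cx3cr1*, *F13a1*, *Ms4a6c* and *Adgre1*). Their summed level was 1446, 1400 and 1028 CPM (a gene's reads scaled to a common library total) in controls 1 to 3 and 6217, 7441 and 6992 in *MxCDX2* mice 1 to 3. All 7 of these markers were detected, none was at 0, and 5 of 7 were called up, against 4.59% of all genes tested. The markers thus moved in the same direction as *Apobec1* between the groups. Among *MxCDX2* mice the order was also the same, but among controls control 1 was highest in the marker sum and lowest for *Apobec1*. The part of these markers in the *Apobec1* result was not tested.

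*Adarb1* (ENSMUSG00000020262, chr10:77290726-77418270, minus strand) encodes ADAR2, the adenosine deaminase best known for recoding glutamate receptor messenger RNA in neurons. Its normalized read counts were 227, 145 and 554 in controls 1, 2 and 3. In *MxCDX2* mice 1, 2 and 3 they were 82.6, 53.9 and 78.3. Every *MxCDX2* mouse lay below every control, but the controls were unequal, with the wild-type mouse at 2.98 times the mean of the other controls. The group means were 309 ± 216 (SD, n = 3) and 71.6 ± 15.5 (SD, n = 3). *Adarb1* fell by 2.11 on the log2 scale (SE 0.53, 95% interval -3.37 to -0.85), a fitted 4.31-fold difference, with an adjusted p-value of 0.0334 by edgeR. When the wild-type mouse was omitted, *Adarb1* still passed, at -1.36 (adjusted p-value 0.0297, edgeR), and the lowest remaining control was at 145 normalized counts against 82.6 in the highest *MxCDX2* mouse. The call was lost without control 1 (log2 fold change -2.27, adjusted p-value 0.0545), *MxCDX2* 1 (-2.22, 0.0772), *MxCDX2* 2 (-1.93, 0.108) or *MxCDX2* 3 (-2.17, 0.104), each by edgeR, and under limma voom (-1.93, 0.0619).

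The level of *Adarb1* in each mouse went along with summed markers of megakaryocytes. It went along partly with those of stroma, bone and endothelium, of natural killer (NK) cells and of other cells. The 5 megakaryocyte markers (*Itga2b*, *Pf4*, *Gp9*, *Gp1ba* and *Ppbp*) summed to 686, 480 and 5678 CPM in controls 1 to 3 and to 295, 217 and 297 in *MxCDX2* mice 1 to 3. A list of 10 stromal, bone and endothelial genes (*Col1a1*, *Col1a2*, *Col3a1*, *Cxcl12*, *Lepr*, *Pdgfrb*, *Bglap*, *Cdh5*, *Kdr* and *Emcn*), drawn up after the values of *Adarb1* had been seen, summed to 703, 330 and 1231 CPM in controls and to 260, 169 and 351 in *MxCDX2* mice. In both lists the wild-type mouse was the highest and *MxCDX2* 2 the lowest of the 6 mice, as for *Adarb1*. The groups did not overlap in the megakaryocyte sum. They overlapped in the stromal, bone and endothelial sum, where *MxCDX2* 3 (351 CPM) lay above control 2 (330 CPM), unlike for *Adarb1*. All 5 megakaryocyte markers lay lower in every *MxCDX2* mouse than in every control and 2 of 5 were called, both down, with 3 called without the wild-type mouse or control 2 and 0 without any 1 of the *MxCDX2* mice. Of the stromal, bone and endothelial genes, 4 of 10 lay lower in every *MxCDX2* mouse and 1, *Pdgfrb*, lay higher in each. Of all 15980 genes tested, 3312 lay lower in every *MxCDX2* mouse and 3412 higher, and 13.6% were called. Of these 10 genes *Cxcl12* and *Cdh5* were called, both down, but 0 were called without the wild-type mouse, control 1, *MxCDX2* 1 or *MxCDX2* 2, 1 without *MxCDX2* 3 and 3 without control 2. Of 5 stem and progenitor markers, 4 lay lower in every *MxCDX2* mouse and 1 higher, 1 was called (down, and lost without any 1 of the *MxCDX2* mice), and their levels in the wild-type mouse were 1.07 to 4.54 times the mean of the other controls. Their sum was 170, 157 and 321 CPM in controls 1 to 3 and 169, 188 and 182 in *MxCDX2* mice 1 to 3, so that it was also highest in the wild-type mouse, but the groups overlapped. The 6 T cell markers were at 0.982 to 3.28 times the other controls in the wild-type mouse. The 5 NK cell markers (*Ncr1*, *Klrb1c*, *Gzma*, *Prf1* and *Nkg7*) summed to 122, 90.4 and 143 CPM in controls 1 to 3. In *MxCDX2* mice 1 to 3 they summed to 88.3, 42.2 and 40.95. This sum was also highest in the wild-type mouse, and the groups did not overlap. Of these markers 1 of 5 was called (down), with 0 called without control 2, *MxCDX2* 2 or *MxCDX2* 3. No gene of these lists was at 0 in all mice. The part of these cells in the *Adarb1* result was not tested.

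**Figure D2:**
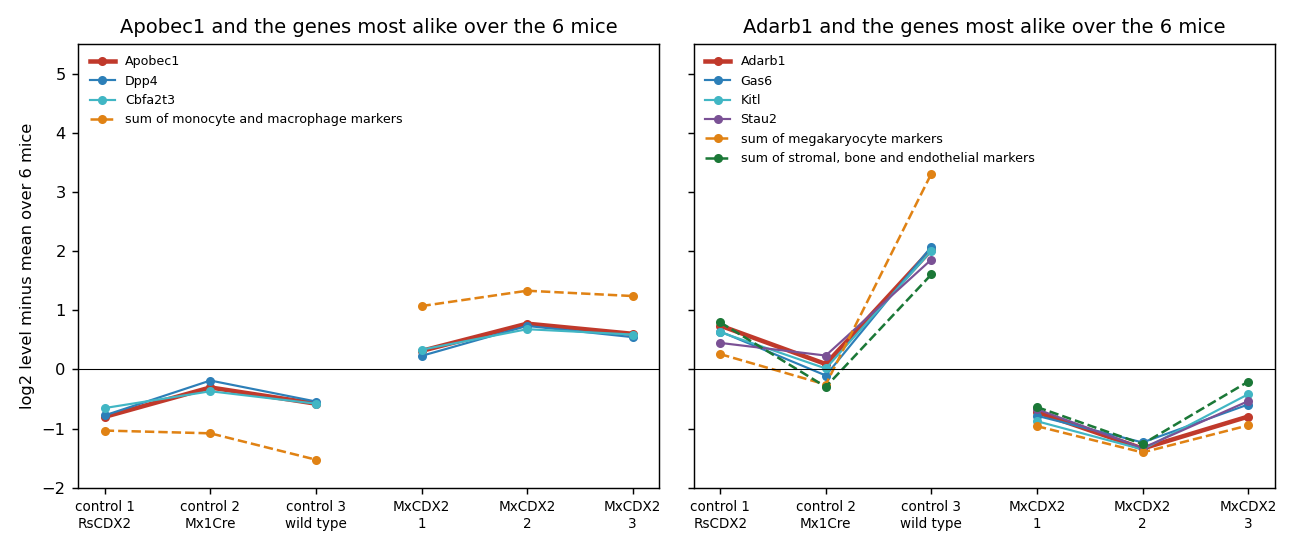
Profiles over the 6 mice of *Apobec1* (left) and *Adarb1* (right), each with genes most alike (2 for *Apobec1*, 3 for *Adarb1*) and with summed marker levels (dashed), as log2 level minus its mean over the mice (vertical axis). The profile of *Apobec1* steps up between the groups, as does the monocyte and macrophage sum, and that of *Adarb1* peaks in the wild-type control together with the megakaryocyte and stromal sums.

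*Adar* (ENSMUSG00000027951, chr3:89715022-89753446, plus strand) encodes ADAR1, which exists as a constitutive and an interferon-inducible protein. Both forms come from the same gene and were not told apart by counts per gene. Its normalized read counts were 6464, 6950 and 6551 in controls 1, 2 and 3, and 7856, 8476 and 7231 in *MxCDX2* mice 1, 2 and 3. The groups did not overlap, and within a group the mice lay close together, with coefficients of variation of 3.89% and 7.92% (SD over mean, n = 3 each). The log2 fold change was 0.24 (SE 0.10, 95% interval 0.0021 to 0.48), with an adjusted p-value of 0.136 by edgeR. *Adar* thus passed neither threshold, and the interval leaves room for a difference of 0.48 on the log2 scale, well under the fold threshold. Scaling by total counts alone gave 0.36 with an adjusted p-value of 0.0482 by edgeR, and this scaling moved the median over all genes from 0.0021 to 0.118. *Adar* overlaps *Chrnb2* on the other strand, and the strand setting of the counting is not given in the sources used here.

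*Apobec3* (ENSMUSG00000009585, chr15:79891659-79915906, plus strand) encodes the only APOBEC3 protein of the mouse, a restriction factor of retroviruses. Its normalized read counts were 9904, 9138 and 5610 in controls 1, 2 and 3, and 11774, 5564 and 9039 in *MxCDX2* mice 1, 2 and 3. Each group held high and low mice, the wild-type mouse being low among controls and *MxCDX2* 2 being low among *MxCDX2* mice, and the groups overlapped. The log2 fold change was 0.10 (SE 0.32, 95% interval -0.66 to 0.85), with an adjusted p-value of 0.858 by edgeR. Its direction was decided by single mice: it was -0.10 without the wild-type mouse and -0.17 without *MxCDX2* 1. These data leave room for a difference of either sign below the fold threshold. The *Apobec3* locus overlaps the end of *Cbx7* on the other strand and the gene model D730005E14Rik, so that some reads of this locus may belong to a neighbour or have been discarded as ambiguous.

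*Apobec2* (ENSMUSG00000040694, chr17:48419231-48432930, minus strand) encodes a family member found mainly in skeletal and heart muscle. It was the rarest of the 5 transcripts in the counts, with 12, 38 and 33 raw counts in controls 1, 2 and 3 and 16, 23 and 10 in *MxCDX2* mice 1, 2 and 3. After normalization the values were 15.3, 37.7 and 30.1 in controls and 16.9, 22.5 and 8.71 in *MxCDX2* mice, and the groups overlapped. The log2 fold change was -0.80 (SE 0.50, 95% interval -1.99 to 0.39), with an adjusted p-value of 0.302 by edgeR, so that a difference was not detectable in these mice, whose coefficients of variation were 41.1% and 43.3% (n = 3 each). Of 7 skeletal muscle markers, 6 were tested and 1 was called (down), while 9.03% of all genes tested were called down. The summed level of these markers was 9.08, 12.7 and 15.0 CPM in controls 1 to 3 and 16.6, 22.5 and 6.15 in *MxCDX2* mice 1 to 3. Their log2 fold changes ranged from -1.20 to 2.57, with a median of 1.52. With a mouse left out, a downward call remained only without the wild-type mouse, and 1 marker was called up without the wild-type mouse or *MxCDX2* 3. *Apobec2* overlaps an antisense gene model (AC166164.1).

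**Figure D3:**
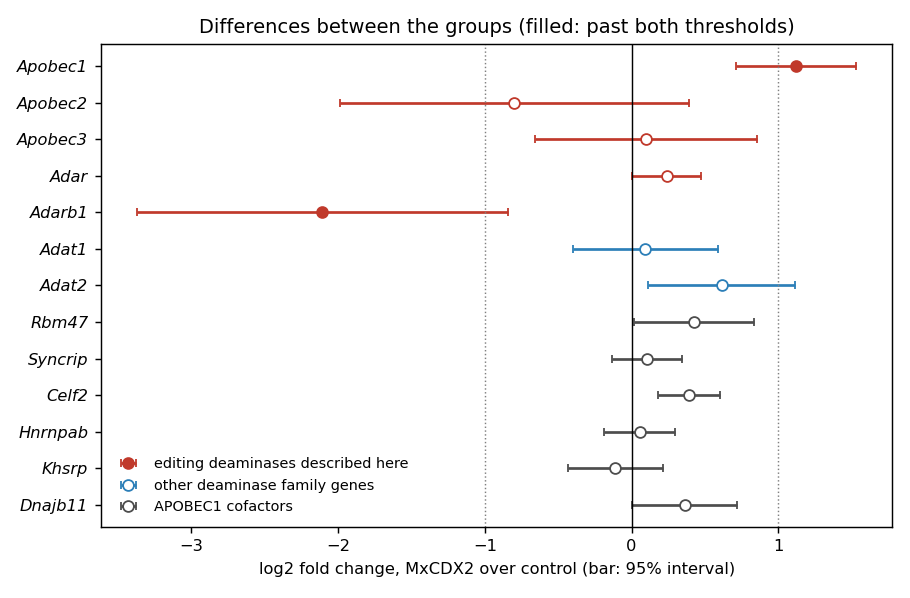
Log2 fold change of *MxCDX2* over control mice (horizontal axis, points) with its 95% interval (bars) for the 5 editing deaminases (red), the other deaminase family genes tested (blue) and the APOBEC1 cofactors tested (grey), where filled points passed both thresholds and dotted lines mark the fold threshold. *Apobec1* (1.12) and *Adarb1* (-2.11) are the filled points, and the intervals of *Apobec2* and *Apobec3* span 0.

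Levels of different genes can be compared only per length, as RPKM, computed here as the CPM of a gene over its length in kilobases. With the union of the annotated exons as length, the control means were 23.6 ± 4.42 for *Apobec1*, 18.2 ± 4.44 for *Apobec3*, 17.3 ± 1.03 for *Adar*, 0.588 ± 0.437 for *Adarb1* and 0.369 ± 0.156 for *Apobec2* (SD, n = 3 each). Over the 3 control mice *Apobec3* (13.1 to 21.2) overlapped both *Apobec1* (19.0 to 27.8) and *Adar* (16.1 to 18.0), while *Apobec1* lay above *Adar* in every mouse. *Adarb1* (0.270 to 1.09) and *Apobec2* (0.194 to 0.496) overlapped each other and lay far below the other genes. In *MxCDX2* mice the means were 55.8 ± 10.2 for *Apobec1*, 22.2 ± 2.07 for *Adar*, 21.2 ± 6.98 for *Apobec3*, 0.231 ± 0.103 for *Apobec2* and 0.145 ± 0.0286 for *Adarb1* (SD, n = 3 each). *Apobec1* was then the most abundant of the 5 genes per length in each *MxCDX2* mouse, from 45.1 to 65.4, and the next gene in that order, *Adar*, ranged from 20.5 to 24.5. *Adar* overlapped *Apobec3* (13.8 to 27.7), and *Apobec2* overlapped *Adarb1*, with the order of these means exchanged between the groups.

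The place of *Apobec3* depends on the length that is used. Its exons cover 9454 bases over 20 annotated transcripts, but its longest transcript has 3053 bases. With the longest transcript of each gene, the control means were 56.4 for *Apobec3*, 28.2 for *Apobec1* and 23.8 for *Adar*, and the *MxCDX2* means were 65.6, 66.6 and 30.5 in the same order of genes. *Apobec3* was then the most abundant of the 5 in each control mouse, and *Apobec1* and *Apobec3* overlapped in *MxCDX2* mice. *Adarb1*, at 0.996 and 0.245, and *Apobec2*, at 0.415 and 0.260, stayed far below the other genes under this length.

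**Figure D4:**
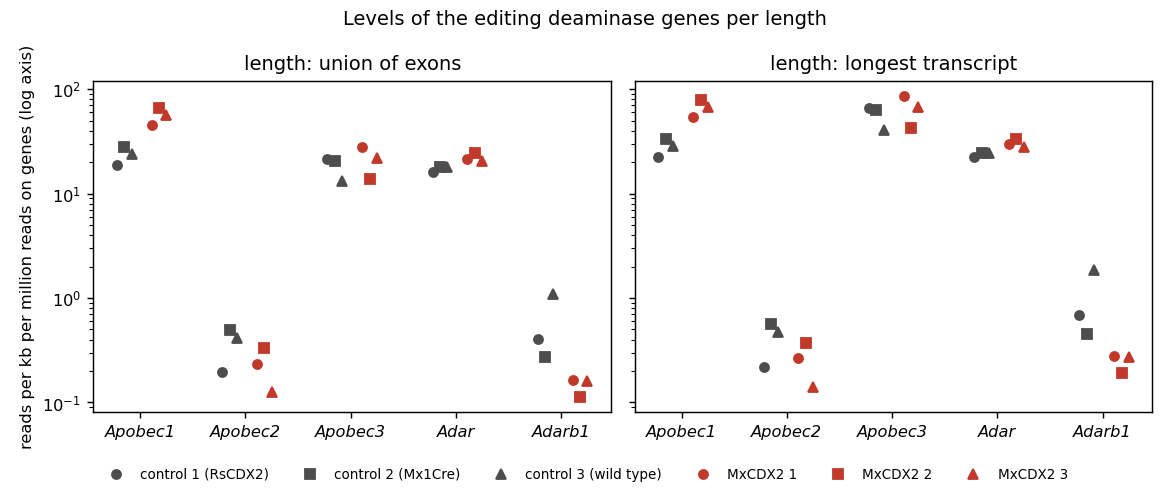
Level per length (RPKM, CPM over the length in kilobases; vertical axis, log scale) of the 5 genes in 3 control (grey) and 3 *MxCDX2* mice (red), with the union of exons (left) or the longest transcript (right) as length. *Apobec1*, *Apobec3* and *Adar* lie far above *Apobec2* and *Adarb1* in both panels, and the order of *Apobec1* and *Apobec3* depends on the length.

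Ratios of counts within a mouse do not depend on the scaling between libraries. *Apobec1* reads per *Adar* read numbered 0.39, 0.51 and 0.45 in controls 1 to 3 and 0.70, 0.89 and 0.93 in *MxCDX2* mice 1 to 3. All *MxCDX2* mice were higher (p = 0.10 in a two-sided exact permutation test, its lower limit here). *Adar* reads per *Adarb1* read numbered 28.4, 47.9 and 11.8 in controls and 95.1, 157 and 92.3 in *MxCDX2* mice, so that the balance of transcripts of the ADAR pair was shifted towards *Adar* in each *MxCDX2* mouse (p = 0.10, same exact permutation test). *Apobec1* reads per *Apobec3* read overlapped between the groups, with 0.26, 0.39 and 0.53 in controls and 0.47, 1.35 and 0.74 in *MxCDX2* mice (p = 0.20, same exact permutation test). The summed level of the 5 genes was 421, 436 and 345 CPM in controls and 554, 476 and 507 in *MxCDX2* mice.

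Genes averaging 100 or more normalized counts were searched for likeness. Those whose profile over the 6 mice was most like that of each enzyme were found by the root mean square difference of the centred log2 CPM, a description over 11911 candidate genes (11912 for *Apobec2*). The closest to *Apobec1* were *Dpp4* (0.068), which encodes a surface dipeptidyl peptidase, and *Cbfa2t3* (0.077), which encodes a transcriptional corepressor. *Dpp4* had 1554, 2337 and 1828 normalized counts in controls 1 to 3 and 3119, 4431 and 3886 in *MxCDX2* mice 1 to 3. *Adarb1* was closest to *Gas6* (0.13), a ligand of the TAM receptor kinases, *Kitl* (0.17), which encodes stem cell factor, and *Stau2* (0.18), which encodes a double-stranded RNA-binding protein. *Gas6* had 2132, 1273 and 5758 normalized counts in controls and 794, 581 and 906 in *MxCDX2* mice, and thus was also highest in the wild-type mouse. For *Adar* the closest were *Mrps15* (0.026), *Ric8b* (0.029) and *Huwe1* (0.038). The closest to *Apobec3* were *Herpud1* (0.12), *Mthfd2* (0.15) and the retrovirus restriction gene *Fv1* (0.16), and *Apobec2*, with its low counts, had only more distant ones, *1700071M16Rik* (0.23), *1700058P15Rik* (0.28) and *Itpr2* (0.28). Between the 5 enzymes themselves the smallest such difference was that of *Apobec3* and *Adar* (0.45) and the largest that of *Apobec1* and *Adarb1* (1.67).

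Of the other genes of the deaminase families described here, 2 were tested and none was called by edgeR, DESeq2 or limma voom. Over all genes tested, 13.6% were called by edgeR. An unadjusted p below 0.05 in edgeR was found for 1 of the 2, and for at least 5749 of all 15980 genes. Of the transfer RNA adenosine deaminases, *Adat1* had a log2 fold change of 0.09 (adjusted p-value 0.785, edgeR) and *Adat2* of 0.61 (95% interval 0.11 to 1.11, adjusted p-value 0.0818, edgeR), with every *MxCDX2* mouse above every control for *Adat2*. *Apobec4* had at most 1 count and *Adarb2* at most 1 count in any mouse, and *Adad1* and *Adad2* had 0 counts in all 6 mice, which allows up to 0.0601 to 0.0776 CPM (3 counts in each library, counting error only). *Adat3* was not analysed here.

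None of the 6 tested genes for APOBEC1 cofactors was called by edgeR, DESeq2 or limma voom, against 13.6% of all genes tested (edgeR). In edgeR 3 of them had an unadjusted p below 0.05, as had at least 5749 of all 15980 genes. *Celf2*, an RNA-binding protein that modulates APOBEC1 editing, came closest, with 9818, 9894 and 9713 normalized counts in controls and 12879, 12912 and 12828 in *MxCDX2* mice. It passed the p-value threshold alone, with a log2 fold change of 0.39 and an adjusted p-value of 0.0235 by edgeR. *Rbm47*, which encodes an essential cofactor, had a log2 fold change of 0.43 (adjusted p-value 0.124, edgeR). *A1cf*, the cofactor best known in liver and intestine, had at most 17 raw counts in a mouse and was not tested. The median log2 fold change of the cofactors was 0.23, against 0.0021 over all genes tested.

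The sensors and effectors of double-stranded RNA, whose activation ADAR1 limits, held 2 called genes among 12, both up. Of all genes tested, 13.6% were called, with 4.59% up and 9.03% down. *Zbp1*, which encodes a sensor of Z-form nucleic acids and shares with the long form of ADAR1 a domain that binds them, had 532, 543 and 1054 normalized counts in controls 1 to 3 and 3239, 2807 and 2113 in *MxCDX2* mice 1 to 3. *Zbp1* rose by 1.94 on the log2 scale (adjusted p-value 0.00807, edgeR), and by 2.36 (0.00258) without the wild-type mouse. *Mlkl*, the executioner of necroptosis, rose by 1.83 (adjusted p-value 0.00077, edgeR), from 711 to 765 normalized counts over the controls to 2554 to 2750 over the *MxCDX2* mice. The other 10 genes were not called, and the median of the list was 0.0016. Of 12 genes for double-stranded RNA binding and inosine handling, 1 was called, *Stau2*, which fell by 1.84 (adjusted p-value 0.0428, edgeR), with 198, 171 and 526 normalized counts in controls and 91.1, 57.8 and 100 in *MxCDX2* mice. Like *Adarb1*, *Stau2* was highest in the wild-type mouse, at 2.85 times the mean of the other controls. Without the wild-type mouse its log2 value was -1.13 (adjusted p-value 0.043, edgeR) and still passed, whereas the call was lost without control 1 or any 1 of the *MxCDX2* mice (adjusted p-values 0.0556 to 0.127, edgeR).

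Genes for uracil in DNA, for deamination of free nucleosides and nucleotides, and for retroelement restriction were examined next. Over all 15980 genes tested, 13.6% were called by edgeR and at least 5749 had an unadjusted p below 0.05 in edgeR. Of 9 genes that remove uracil from DNA or keep it out, none was called by edgeR, DESeq2 or limma voom, and 2 had an unadjusted p below 0.05 in edgeR. The smallest adjusted p-values among them were those of *Dut*, the dUTPase (log2 fold change 0.44, adjusted p-value 0.0282, edgeR), and *Samhd1*, a deoxynucleotide hydrolase (0.66, 0.0411). Among 6 tested deaminases of free nucleosides and nucleotides, *Ampd3*, the AMP deaminase of red cells, fell by 1.50 (adjusted p-value 0.00318, edgeR), from 4576 to 7019 normalized counts over the controls to 2058 to 2356 over the *MxCDX2* mice, beside the fall of all 9 erythroid markers. Their summed level was 40030, 47830 and 46190 CPM in controls and 4437, 1138 and 2303 in *MxCDX2* mice, and their part in the *Ampd3* result was not tested. Of 9 tested genes of retroelement and retrovirus restriction, the setting in which *Apobec3* acts, none was called by edgeR, DESeq2 or limma voom, and 4 had an unadjusted p below 0.05 in edgeR. *Mov10*, an RNA helicase, had a log2 fold change of -0.91 (adjusted p-value 0.0187, edgeR) and *Rnaseh2c*, a subunit of ribonuclease H2, of -0.44 (0.0362), and without control 1 the count in this list was 1.

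The interferon-stimulated genes, to which *Adar* is commonly assigned, did not move together. Of 17 tested, 2 rose and 2 fell, and the median log2 fold change was -0.041. Among all genes tested, 4.59% were called up and 9.03% down. *Mx1*, whose promoter drives the Cre transgene in these mice, rose by 2.69 (adjusted p-value 0.0119, edgeR), with 243, 580 and 491 normalized counts in controls 1 to 3 and 1576, 4638 and 2303 in *MxCDX2* mice 1 to 3. *Mx2* rose by 1.95 (adjusted p-value 0.0336, edgeR), but its call was lost without control 1, control 2, *MxCDX2* 2 or *MxCDX2* 3 (1.47 to 2.11, adjusted p-values 0.067 to 0.0922). Without the wild-type mouse, 3 genes of this list were called up and 2 down. *Rsad2*, which encodes the antiviral enzyme viperin, fell by 2.93 (adjusted p-value 0.0024, edgeR), and *Isg15*, a ubiquitin-like modifier, fell by 1.71 (0.00356). The log2 fold changes of *Adar* and *Apobec3* were 0.24 and 0.10, and neither was called.

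Finally, the abundance of transcripts known from other work to be edited was examined. Of 11 such genes 9 were tested, and none was called by edgeR or limma voom, against 13.6% of all genes tested (edgeR). DESeq2 called 1 (down). In edgeR 6 of the 9 had an unadjusted p below 0.05, as had at least 5749 of all 15980 genes. *Azin1*, which encodes antizyme inhibitor and is recoded by ADAR1, had 19090, 16217 and 13424 normalized counts in controls 1 to 3 and 9729, 7257 and 8821 in *MxCDX2* mice 1 to 3. Every *MxCDX2* mouse lay below every control, with a log2 fold change of -0.92 and an adjusted p-value of 0.0134 by edgeR. *Cyfip2*, which encodes a regulator of actin assembly, had a log2 fold change of -0.91 (adjusted p-value 0.0304, edgeR). The largest log2 fold change of the list was that of *Igfbp7*, at -1.58 (adjusted p-value 0.0714, edgeR), which was not called. It had 639, 412 and 1583 normalized counts in controls 1 to 3 and 297, 211 and 372 in *MxCDX2* mice 1 to 3, and was highest in the wild-type mouse. *Apob* and *Gria2*, the classical substrates of APOBEC1 and ADAR2, were too rare in bone marrow to be tested, with at most 14 and 12 raw counts in a mouse. The number of called genes in this list was 1 without control 2 or without *MxCDX2* 1 and 2 without the wild-type mouse. These values are levels of the whole transcript and say nothing on the share that was edited.

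**Figure D5:**
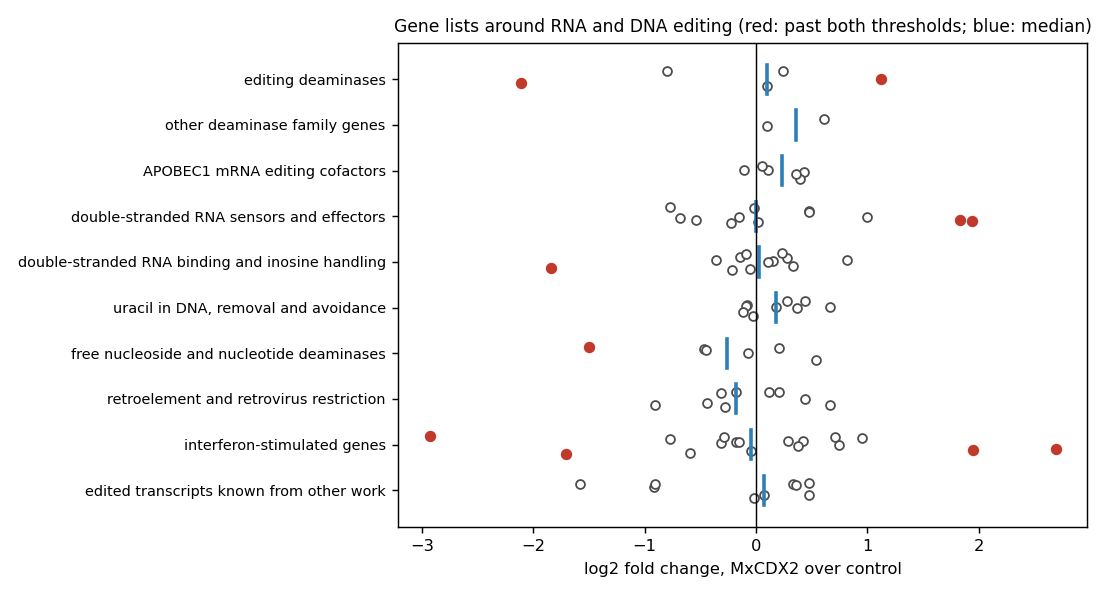
Log2 fold change of *MxCDX2* over control mice (horizontal axis) for each tested gene of the 5 editing deaminases and of the 9 lists around them (rows; points are spread vertically only for visibility), with red points past both thresholds and blue bars at the list medians. Most points lie within 1 of 0 in every row, and the called genes lie on both sides of 0.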

How the data were processed

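The deposited files hold raw counts per gene for each mouse. Per the methods and the submitters' processing notes, the authors made them from reads demultiplexed with bcl2fastq (2.17.1.14), aligned to GRCm38 with STAR (2.5) and counted with HTSeq (0.6.1) on Ensembl release 90. Reads without a feature (9.22 to 14.1% per mouse) or ambiguous between genes (2.99 to 3.16%) were left out of library sizes. Reads shared by overlapping genes are thus lost from both.

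Symbols came from GENCODE M21 (37607 of 39179 identifiers matched). Counts were fitted in R 4.3.3 with edgeR 4.0.16 (TMM, filterByExpr, glmQLFit, glmQLFTest), adjusted by Benjamini-Hochberg over 15980 genes, with thresholds taken from the methods (log2 fold change beyond 1 in either direction, adjusted p below 0.05). The methods use DESeq2, which was an alternative here (1.42.0), as was limma 3.58.1 (voom). Further alternatives were other scalings and filters and fits without each single mouse. Those fits for the marker lists and for single list genes were chosen after seeing the data. Standard errors and intervals were derived from the quasi-likelihood F statistic. The scripts were tested on simulated data. Named genes were the 5 enzymes, the other family genes, per list the 2 with the smallest adjusted p in each direction among those past the thresholds or, where none passed, the 2 smallest, and the 3 most alike genes per enzyme. Further genes (*A1cf*, *Apob*, *Gria2* and *Igfbp7*) were named after their values were seen, and the other genes are markers. Some genes are not reported here and were left out of the lists and of the most alike genes. The enzymes and lists were chosen with earlier results of these data known. Promoters came from RefSeq (GRCm38.p6), and all 5 genes matched. Figures were drawn with Python 3.11.15 and matplotlib 3.10.9. Protein sequences were not used here.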

Additional observations from a re-analysis of the deposited data

How the results depend on the processing

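*Apobec1* kept its direction and its call in all 7 alternative analyses (log2 fold change 1.11 to 1.24) and with each mouse left out (1.02 to 1.26). *Adarb1* kept its direction throughout but lost its call under limma voom (-1.93, adjusted p-value 0.0619) and in 4 of the 6 fits without a mouse (log2 fold changes -2.45 to -1.36 over the 6 fits, adjusted p-values 0.0245 to 0.108, edgeR), and it held at -2.10 with DESeq2. Fits that leave out a mouse have fewer samples. The number of called enzymes was 1 under limma voom and 1 to 2 without a mouse. *Apobec2* (-1.12 to -0.49) and *Adar* (0.19 to 0.30) kept their direction without a mouse and were never called, and *Apobec3* (-0.17 to 0.35) changed sign without control 3 (-0.10) and without *MxCDX2* 1 (-0.17), for which the cause was not tested. Over all genes, 3471 passed the adjusted p-value alone against 2177 called, and the number called without a mouse ranged from 1205 (without *MxCDX2* 3) to 2406. With the adjusted p-value alone, by its construction a looser rule, the lists held 1 APOBEC1 cofactor, 4 sensors, 3 genes of double-stranded RNA binding, 2 of uracil removal, 2 nucleotide deaminases, 3 restriction genes and 3 edited transcripts. The called genes of double-stranded RNA binding numbered 0 under limma voom and under total counts only, and 0 to 1 without a mouse. Restriction genes numbered 0 to 1 without a mouse, and edited transcripts 0 to 2 without a mouse and 1 with DESeq2. No paired analysis was possible because the control labels carry no replicate number and each control has its own genotype. *Apobec2* had 10 to 38 counts per mouse, and the parts of counting error and of the spread between mice in its wide interval were not tested.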
